A study of Mus musculus with 6 samples.

Results

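The AP-1 family was described here through 10 genes, namely Fos, Fosb, Fosl1, Fosl2, Jun, Junb, Jund, Batf, Batf3 and Atf3. They were found by matching the Ensembl identifiers of the tables, with the version removed, to these symbols. All 10 were among the 52550 genes of the gene table, and 29 of the 131146 rows of the transcript table belonged to them. RNA was sequenced from CD3+ T cells of wild-type mouse spleen after 24 h with activators of CD3, a part of the T cell receptor (TCR) complex, and of CD28, its co-stimulatory receptor. In 3 samples the cells received the activators only (TCR alone), and in the other 3 samples the small molecule DMGV was also present at 100 ng/ml (TCR+DMGV). The study's own text calls the compound of this experiment LNY1, whereas the sample labels name DMGV, and the group names here follow the labels. The 3 samples of a group are labelled as biological replicates, and the labels give neither the age of the mice nor which animals gave which sample. All 6 samples were activated, so levels before activation were not analysed here.

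AP-1 is a dimer of basic leucine zipper (bZIP) proteins. The Fos proteins bind DNA only as partners of a Jun protein, whereas Jun proteins can also pair with each other. Batf and Batf3 lack an activation domain, pair with Jun proteins and bind beside the interferon regulatory factors Irf4 and Irf8 in lymphocytes, and Atf3 is a stress-induced bZIP protein that pairs with Jun proteins. In T cells, AP-1 forms after signals of the TCR and CD28 have passed through the MAP kinases, and it binds together with NFAT at cytokine genes. Fos and Jun are immediate early genes, whose RNA is known to peak soon after stimulation and to decline quickly.

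Letters of known bZIP sites occur near the start of some of these genes. The promoter stretches below were taken from RefSeq windows that run from 250 bases before to 50 bases after the start (GRCm38.p6). A window was found for 9 of the 10 genes, with none for Fosl1. Capitals mark the octamer TGACATCA in Jun and the hexamer TGACGT, the core of the cyclic AMP response element, in the others, read on either strand, so that TGACGT appears as its reverse complement in Atf3. The first letter in capitals stands at -45 in Jun, -66 in Fos, -8 in Atf3 and -98 in Batf, counted from the RefSeq start. For Atf3 and Batf this start differs from the start of the annotated gene given below. The Atf3 stretch lies inside the annotated gene, which runs from 191170296 to 191218039 on the reverse strand.
Jun (chr4:95052234-95052293, reverse strand): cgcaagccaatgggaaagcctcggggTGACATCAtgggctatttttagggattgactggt
Fos (chr12:85473797-85473856, forward strand): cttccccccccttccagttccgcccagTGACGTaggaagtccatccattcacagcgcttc
Atf3 (chr1:191183309-191183368, reverse strand): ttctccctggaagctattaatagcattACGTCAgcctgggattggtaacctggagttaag
Batf (chr12:85686595-85686654, forward strand): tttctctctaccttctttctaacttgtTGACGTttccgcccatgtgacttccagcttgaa

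The octamer TGACATCA was chosen as a site of the Jun promoter, so its presence in Jun was given in advance. It was present in 3.62% of all 32851 windows, and in none of the other family windows. The hexamer TGACGT was present in 7.51% of windows and in Fos, Batf and Atf3. The full element TGACGTCA, which contains the hexamer, was in 1.79% of windows and in none of the 9. The AP-1 site TGACTCA was in 5.2% of windows and also in none of the 9. The GC box GGGCGG was in 35.7% of windows and in 7 of the 9, the exceptions being Junb and Jund. All motifs were searched on both strands. These matches describe letters in short windows and were not tested for binding.

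The Jun genes made up most of the family RNA. In FPKM (a level per base of gene length, scaled to the depth of the sample), the Jun genes together held 83.2% to 85.8% of the summed level of the 10 genes in each sample. The Fos genes held 2.56% to 2.94%, Batf and Batf3 together 6.82% to 8.47%, and Atf3 4.47% to 5.77%. Jund was highest, at 396 ± 57.6 FPKM in TCR alone and 407 ± 31.3 FPKM in TCR+DMGV (SD, n = 3 each, as for all means below). Junb followed at 87.6 ± 11.2 and 97.3 ± 6.83 FPKM. Batf stood at 44.5 ± 2.75 and 42.4 ± 2.71 FPKM, Atf3 at 30.3 ± 1.35 and 27.9 ± 1.55 FPKM, and Jun at 17.9 ± 1.09 and 15.9 ± 0.995 FPKM.

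The Fos genes and Batf3 were the low members. Fosl1 had 9.56 ± 2.64 FPKM in TCR alone and 9.75 ± 1.47 FPKM in TCR+DMGV, Fosl2 had 4.44 ± 0.621 and 4.09 ± 0.554 FPKM, and Fos had 2.23 ± 0.204 and 2.48 ± 0.0824 FPKM. Batf3 lay beside Fos at 2.35 ± 0.819 and 2.25 ± 0.338 FPKM. Fosb was lowest at 0.247 ± 0.0602 and 0.374 ± 0.149 FPKM. In this order of levels over all 6 samples, Fos and Batf3 were the neighbours whose ranges overlapped, with Fos above Batf3 in 3 of the 6 samples. All other neighbours had ranges that did not overlap. By the FPKM of the main transcript of each gene, which uses the length of that transcript, the order was the same except that Batf3 (3.47 FPKM over all samples) came before Fos (2.50 FPKM).

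**Figure D1:**
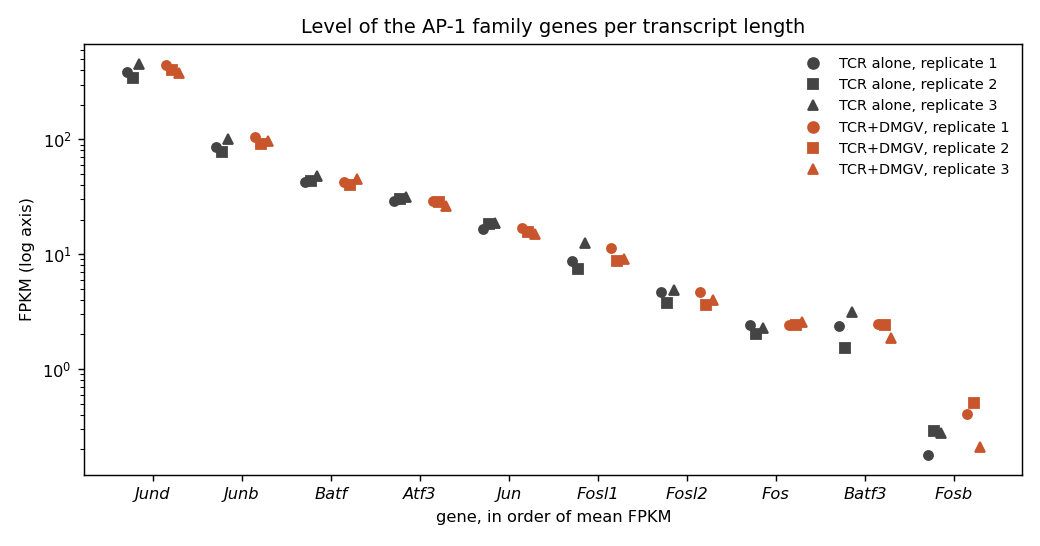
FPKM of the 10 genes in each sample on a log axis, with TCR alone in grey and TCR+DMGV in orange and the replicate number shown by the marker. Jund lies between 343 and 457 FPKM and Fosb between 0.178 and 0.503 FPKM, and Fos and Batf3 are the neighbours that share a range.

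No AP-1 gene differed between TCR alone and TCR+DMGV past the threshold. The gene counts were compared by edgeR's two-sided quasi-likelihood test with TMM normalisation over the 14786 genes that passed its expression filter, and an adjusted p under 0.05 was the threshold. All 10 AP-1 genes passed the filter. The threshold was passed by 0 of the 10, against 2 of all genes tested (0.0135%). At an unadjusted p under 0.05 the count was again 0 of the 10, against 471 of all genes (3.19%). That 0 belongs to the fit of all samples. When TCR alone replicate 3 was left out, the background count was 1109 of 15191 genes, with Junb among them. The 2 groups overlapped in CPM (normalised counts, scaled to equal library size) for each of the 10 genes, whereas 1310 genes (8.86%) had groups without overlap. Of the 10 genes, 5 had a higher estimate in TCR+DMGV and 5 a lower estimate, with a median log2 fold change of 0.0047, and of all genes 50.6% were higher with a median of 0.0024. Without TCR alone replicate 3 the median of the 10 was 0.17, and without TCR alone replicate 2 it was -0.07. The adjusted p was 0.999 for each of the 10 genes. With 3 samples against 3, an exact two-sided permutation test cannot give a p under 0.1, and for the AP-1 genes it gave 0.2 to 1.

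**Figure D2:**
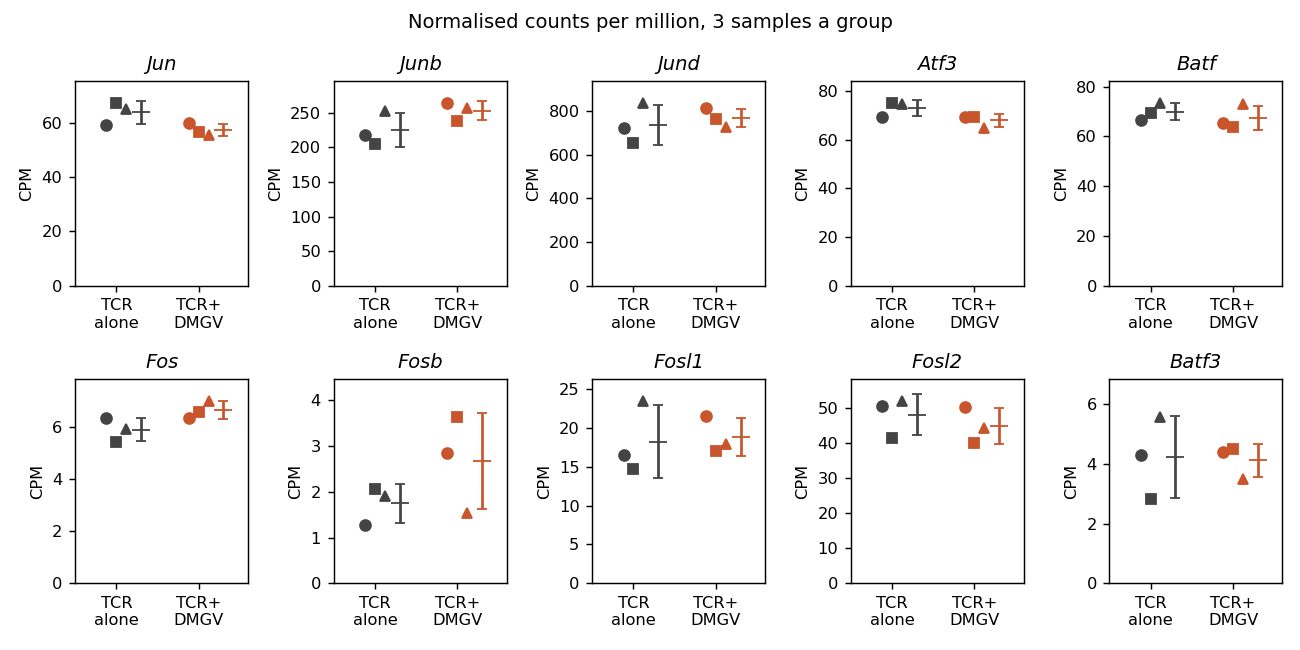
Normalised counts (CPM) of each gene in the 3 samples of each group, with mean and SD beside the points and each axis starting at 0. The groups overlap in all 10 panels, and Fosb and Batf3 show the widest scatter relative to their level.

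Jun (ENSMUSG00000052684.4), the founding member and the partner of most Fos proteins, had the smallest p of the 10. Its gene is a single exon on chromosome 4 from 95049034 to 95052222 (GRCm38, reverse strand). TCR alone replicates 1, 2 and 3 had 59.2, 67.3 and 65.1 CPM, and TCR+DMGV replicates 1, 2 and 3 had 59.8, 56.7 and 55.4 CPM. TCR alone replicate 1 lay below TCR+DMGV replicate 1, and the other values of TCR alone lay above those of TCR+DMGV. The log2 fold change was -0.16 (standard error 0.09, exact permutation p = 0.2), and its 95% interval ran from 0.778 to 1.04 as a fold.

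Junb (ENSMUSG00000052837.6), a Jun protein that restrains proliferation in several cell types and drives Il4 in T helper cells, had the next smallest p and the opposite sign. It is annotated on chromosome 8 from 84974484 to 84978718 (reverse strand), with a main transcript of 1 exon. The 3 TCR alone samples had 218, 205 and 252 CPM, and the TCR+DMGV samples had 264, 238 and 257 CPM. The groups overlapped, since TCR alone replicate 3 lay above TCR+DMGV replicate 2. The log2 fold change was 0.17 (standard error 0.10, exact permutation p = 0.2), with an interval from 0.961 to 1.31 as a fold. Without TCR alone replicate 3 it was 0.26 (standard error 0.08, edgeR adjusted p = 0.65), and without TCR alone replicate 2 it was 0.10.

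Jund (ENSMUSG00000071076.6), the Jun protein that is made steadily in resting cells, lies on chromosome 8 from 70698949 to 70700616 (forward strand) in a single exon. It had 720.45, 655 and 836 CPM in TCR alone against 811, 761 and 728 CPM in TCR+DMGV. Both the lowest and the highest value were in TCR alone, and the TCR+DMGV values lay between them. The log2 fold change was 0.06 (standard error 0.10, exact permutation p = 0.7), with an interval from 0.881 to 1.23 as a fold.

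Among the Fos genes, Fosb (ENSMUSG00000003545.3; chromosome 7 from 19302696 to 19310051, reverse strand), an immediate early gene with short and long protein forms, had the largest estimate of the 10 genes and the widest interval. TCR alone samples had 1.26, 2.06 and 1.91 CPM, from 48, 84 and 79 counts. TCR+DMGV samples had 2.85, 3.62 and 1.54 CPM, from 127, 156 and 61 counts. TCR+DMGV replicates 1 and 2 lay above all TCR alone samples, and replicate 3 lay within them. The log2 fold change was 0.62 (standard error 0.36, exact permutation p = 0.3), with an interval from 0.849 to 2.76 as a fold. Without TCR+DMGV replicate 3 it was 0.89 (standard error 0.30), and without TCR+DMGV replicate 2 it was 0.33.

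Fos (ENSMUSG00000021250.13; chromosome 12 from 85473890 to 85477273, forward strand), the classical partner of Jun, had 6.35, 5.44 and 5.92 CPM in TCR alone against 6.34, 6.57 and 7.02 CPM in TCR+DMGV. TCR alone replicate 1 and TCR+DMGV replicate 1 were nearly equal, and otherwise the TCR+DMGV samples were higher. The log2 fold change was 0.17 (standard error 0.14, exact permutation p = 0.2), with an interval from 0.896 to 1.41 as a fold. Fosl1 (ENSMUSG00000024912.5; chromosome 19 from 5447547 to 5455946, forward strand), which encodes Fra-1, had 16.5, 14.6 and 23.5 CPM in TCR alone against 21.5, 17.0 and 17.9 CPM in TCR+DMGV. Its highest and lowest values were both in TCR alone, and the log2 fold change was 0.05 (standard error 0.19, exact permutation p = 0.8). Fosl2 (ENSMUSG00000029135.10; chromosome 5 from 32135801 to 32157842, forward strand), which encodes Fra-2, ranged from 41.4 to 52.0 CPM in TCR alone against from 39.8 to 50.1 CPM in TCR+DMGV, with a log2 fold change of -0.10 (standard error 0.13). That of Fosl2 was -0.20 without TCR alone replicate 2, -0.19 without TCR+DMGV replicate 1, -0.03 without TCR alone replicate 3 and -0.02 without TCR+DMGV replicate 2.

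The remaining 3 genes also overlapped between the groups. Atf3 (ENSMUSG00000026628.13; chromosome 1 from 191170296 to 191218039, reverse strand) had 69.3, 75.2 and 74.6 CPM in TCR alone against 69.6, 69.5 and 65.005 CPM in TCR+DMGV. TCR alone replicate 1 lay just below TCR+DMGV replicates 1 and 2, and the log2 fold change was -0.10 (standard error 0.08). Batf (ENSMUSG00000034266.6; chromosome 12 from 85686669 to 85709087, forward strand), needed for Th17 and follicular helper T cells, ranged from 66.7 to 73.4 CPM in TCR alone against from 63.8 to 73.0 CPM in TCR+DMGV, with a log2 fold change of -0.05 (standard error 0.09). Batf3 (ENSMUSG00000026630.9; chromosome 1 from 191097847 to 191108945, forward strand), best known in dendritic cells and also made by activated T cells, ranged from 2.82 to 5.56 CPM in TCR alone against from 3.48 to 4.48 CPM in TCR+DMGV, with a log2 fold change of -0.04 (standard error 0.27). The scatter of the 10 genes, as the biological coefficient of variation in the same fit, ran from 10.9% for Atf3 to 33.3% for Fosb beside a median of 17.7% over all genes tested.

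**Figure D3:**
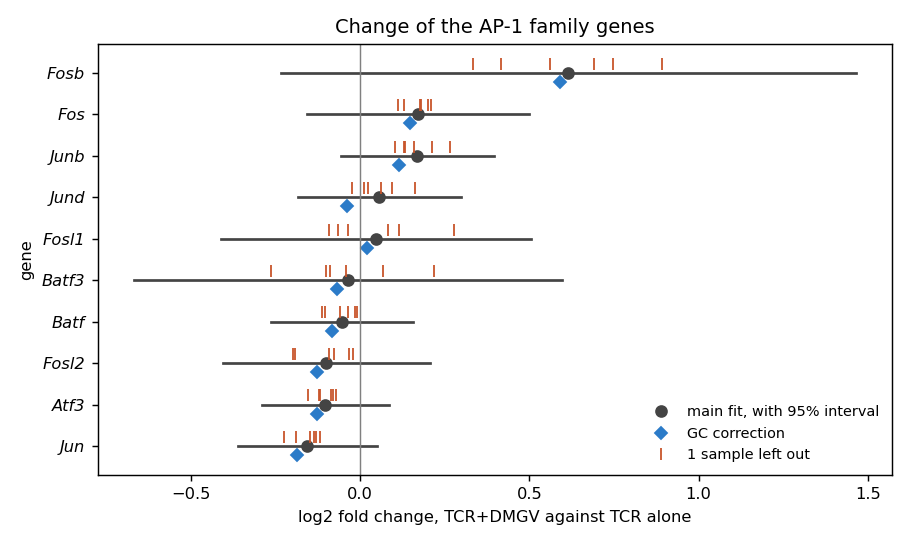
Log2 fold change of each gene, TCR+DMGV against TCR alone, with the 95% interval of edgeR's fit (grey), the value after correction for GC content (blue) and the 6 values with 1 sample left out (orange ticks). Every interval includes 0, and the ticks of Jund, Fosl1 and Batf3 fall on both sides of it.

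The samples differed in their GC trend, and the deviations of the AP-1 genes are given beside it. In each sample the level of genes was followed over GC content, taken from the longest annotated transcript of each gene. The trend was expressed as the log2 deviation at 65% GC minus that at 45% GC. It was 0.22 in TCR alone replicate 3 and 0.10 in TCR+DMGV replicate 1. It was -0.27 in TCR alone replicate 2 and -0.09 in TCR alone replicate 1, and 0.02 in both TCR+DMGV replicates 2 and 3. The AP-1 genes had GC contents from 51.9% for Fos to 67.1% for Jund, with 62.6% for Junb, 60.7% for Batf3, 58.5% for Fosl1 and 53.1% for Fosl2.

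Jund deviated from its mean over the 6 samples by 0.16 in TCR alone replicate 3 and by -0.20 in TCR alone replicate 2 on the log2 scale, and Fosl1 by 0.36 and -0.32 in the same samples. Batf3 deviated by 0.44 and -0.53 there, and Junb by 0.08 and -0.22. Jun deviated by 0.11 and 0.16 and Atf3 by 0.08 and 0.09 in these samples, so both lay above their means in each. These genes were chosen after their values were seen. After correction for the GC trend the log2 fold change of Jund was -0.040 (standard error 0.07), opposite in sign to the uncorrected value. Junb had 0.11 (standard error 0.07), Jun -0.19 (standard error 0.08), Fosl1 0.02 (standard error 0.16) and Atf3 -0.13 (standard error 0.07) after the correction, and the adjusted p stayed above 0.99 for each. The part of the GC trend in these differences was not tested beyond this correction.

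**Figure D4:**
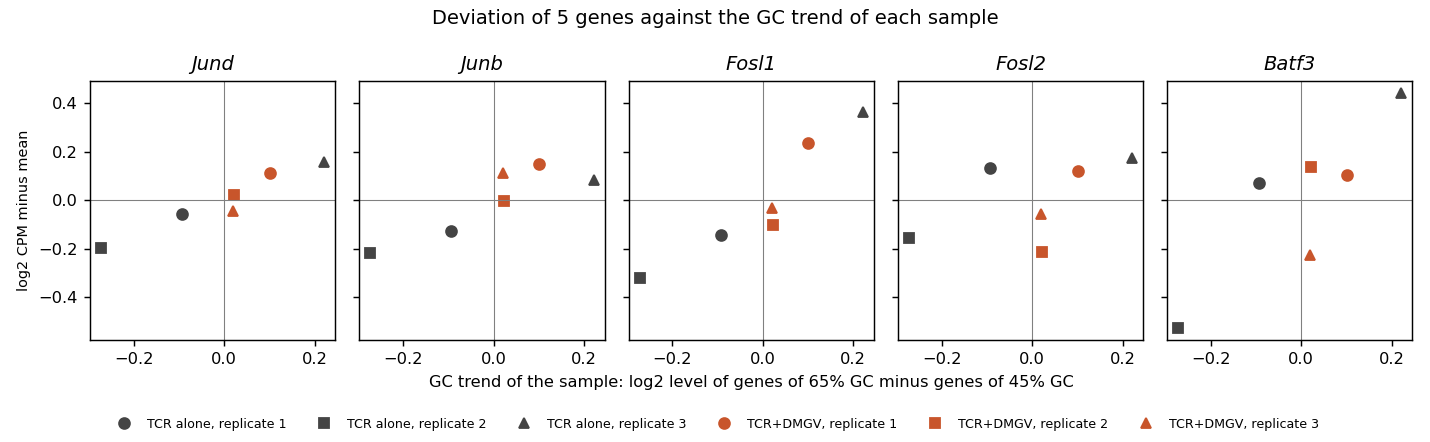
Deviation of 5 genes from their mean over the 6 samples (log2 CPM) against the GC trend of the sample (log2 level at 65% GC minus that at 45% GC). TCR alone replicate 2, with a trend of -0.27, is lowest for Jund, Junb, Fosl1 and Batf3, and TCR alone replicate 3, with a trend of 0.22, is highest for Jund, Fosl1, Fosl2 and Batf3.

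Of the 10 genes, 4 share exonic bases with a gene on the opposite strand, and the counting is not stated to use strand. In the annotation, Gm11175 lies on chromosome 8 from 70699162 to 70700080, opposite to Jund, and all of its 877 exonic bases fall in the coding sequence of Jund and take up 52.6% of its exon. A short exon of Gm11175 is shown here on the strand of Jund because the same letters can be counted to either gene.
Jund (chr8:70699616-70699689, GRCm38, forward strand): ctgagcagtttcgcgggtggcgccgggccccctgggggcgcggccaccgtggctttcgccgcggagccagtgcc

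The GC content of this exon was 78.4%, above the 67.1% of the whole Jund transcript. Gm11175 was listed with 18943, 17782 and 24609 counts in TCR alone against with 24259, 23362 and 20106 counts in TCR+DMGV, beside 27364, 26728 and 34607 counts of Jund in TCR alone and 36088, 32789 and 28843 counts in TCR+DMGV. The ratio of Gm11175 to Jund stayed between 0.665 and 0.712 in the 6 samples. Reads of the 2 genes cannot be told apart here, so the level of Jund given above depends on how they were divided. With the counts of both summed, the log2 fold change was 0.06 (standard error 0.11).

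Over the 3 Fosl1 transcripts of the annotation, Fosl1 shares 57.2% of its exonic bases with Ccdc85b. The counts hold only 1 of these transcripts, Fosl1-201 of 1864 bases, whose own share was not computed. Ccdc85b had 551 to 830 counts beside 597 to 971 counts of Fosl1. The ratio of Ccdc85b to Fosl1 ran from 0.823 to 1.09, and with both summed the log2 fold change was 0.06 (standard error 0.17). Jun shares 7.3% of its exonic bases with the antisense gene Junos (98 to 143 counts), and Junb shares 7.5% with Prdx2 (2807 to 3656 counts).

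At the level of transcripts, the same genes were compared with the deposited transcript counts. Of the 29 transcripts, 16 had a mean of at least 10 counts and 5 had 0 counts in every sample. In the test over 38401 transcripts, 17 transcripts of the AP-1 genes were compared and 0 passed an adjusted p of 0.05, against 0 of all transcripts (0%). At an unadjusted p under 0.05 the count was 0 of the 17, against 1235 of all transcripts (3.22%). For each of the 10 genes, the gene count was the sum of its transcript counts. Jun, Jund and Fosl1 had a single transcript in the table. Batf-201 held 99.9% of the counts of its gene, Atf3-201 99.8%, Junb-201 99.8%, Fosl2-201 98.2% and Fos-201 94.8%, so gene and transcript gave nearly the same comparison for these genes.

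Fosb and Batf3 were divided over several transcripts. Fosb-201, of 4 exons with a coding sequence of 1014 bases, had 22, 73 and 52 counts in TCR alone against 83, 132 and 0 counts in TCR+DMGV. In TCR+DMGV replicate 3, where Fosb-201 was listed at 0, Fosb-202, with a coding sequence of 906 bases, was listed with 36 counts, and it was at 0 in the other 5 samples. Fosb-206, with a coding sequence of 711 bases, ranged from 0 to 25 counts in TCR alone against from 13 to 25 counts in TCR+DMGV. The transcript counts are estimates that divide shared reads, so at these depths the change between Fosb-201 and Fosb-202 in 1 sample was not tested as a difference between isoforms. For Fosb-201 the log2 fold change was 0.45 with a standard error of 1.51.

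Batf3-201, the coding transcript, had 121, 60 and 179 counts in TCR alone against 166, 155 and 96 counts in TCR+DMGV, which was 52.2% to 77.8% and 69.6% to 85.1% of the counts of the gene. Its log2 fold change was 0.12 (standard error 0.48). Batf3-205, which is annotated without a coding sequence, had 30, 30 and 13 counts in TCR alone against 15, 20 and 6 counts in TCR+DMGV, with a log2 fold change of -0.93 (standard error 0.60). Batf3-204, also without a coding sequence, had 4 to 28 counts in both groups (log2 fold change 0.05, standard error 0.97). The low transcripts of the other genes with a mean of at least 10 counts were Fosl2-202 (log2 fold change -0.62, standard error 0.48), Fosl2-203 (-0.45, standard error 0.63) and Junb-202 (0.33, standard error 0.49), and each overlapped between the groups.

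**Figure D5:**
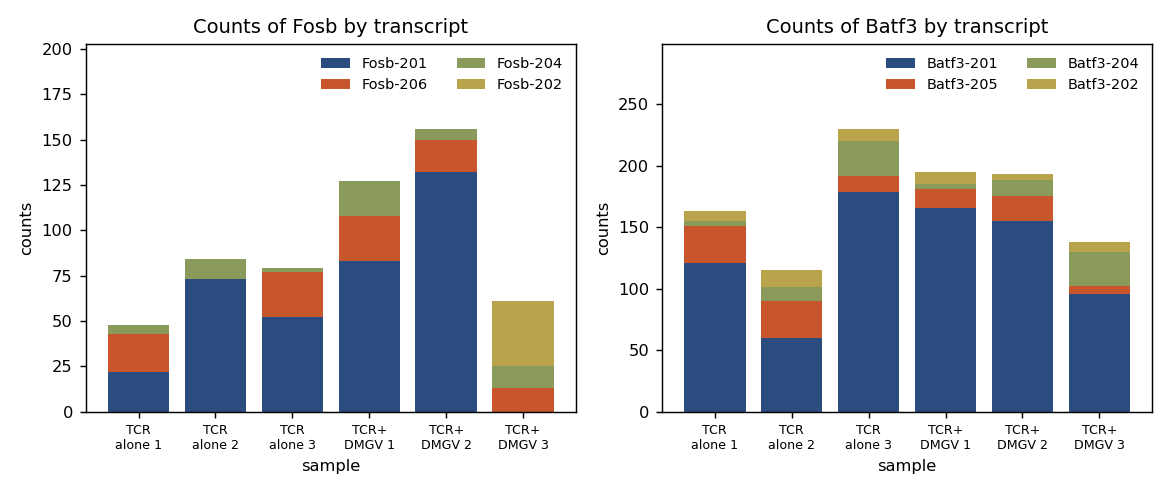
Counts of Fosb and Batf3 in each sample, stacked by transcript, with the height of a bar equal to the count of the gene. In TCR+DMGV replicate 3 Fosb-201 is at 0 and Fosb-202 holds 36 counts, whereas Batf3-201 is the largest block of Batf3 in all 6 samples.

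The other genes around AP-1 were described through lists, and in none of them did a tested gene pass the threshold. The edgeR adjusted p was 0.999 for each tested gene named in these lists. Among the other bZIP genes of the CREB, ATF and C/EBP families, 21 of 22 were tested, 10 were higher in TCR+DMGV and 11 lower, and the median log2 fold change was -0.0051, which ran from -0.030 (without TCR alone replicate 2) to 0.064 (without TCR+DMGV replicate 2) with 1 sample left out. Cebpb, a C/EBP factor of inflammatory responses, had 26.7 ± 2.41 CPM in TCR alone against 18.6 ± 0.551 CPM in TCR+DMGV without overlap, a log2 fold change of -0.52 (standard error 0.10). It was the 1 gene of the 21 with an unadjusted p under 0.05, beside 3.19% of all genes. Cebpa was low, at 0.733 ± 0.0838 and 1.18 ± 0.345 CPM (log2 fold change 0.69, standard error 0.34). The groups did not overlap for 3 of the 21, Cebpb and Cebpa among them, beside 8.86% of all genes.

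Of the Maf, Bach, NFE2 and small AP-1 factors, 10 of 14 were tested and 2 were higher in TCR+DMGV, with a median log2 fold change of -0.11, and 1 of the 10 had an unadjusted p under 0.05, beside 3.19% of all genes. With 1 sample left out the median ran from -0.23 (without TCR+DMGV replicate 2) to -0.036 (without TCR+DMGV replicate 3). Bach2, a repressor that competes with Jun proteins for AP-1 sites in lymphocytes, had 222, 179 and 94.7 CPM in TCR alone against 66.9, 68.8 and 94.4 CPM in TCR+DMGV. TCR alone replicate 3 was almost equal to TCR+DMGV replicate 3, and the other 2 TCR alone samples were far above. This gene was that 1 of the 10, with a log2 fold change of -1.11 (standard error 0.30). Nfe2l1, a regulator of proteasome genes, had 44.5, 139.69 and 47.3 CPM in TCR alone against 42.9, 37.6 and 39.3 CPM in TCR+DMGV. Its log2 fold change was -0.95 (standard error 0.43), and TCR alone replicate 2 lay far above all other samples. The groups did not overlap for 2 of the 10, Bach2 and Nfe2l1, beside 8.86% of all genes. Batf2 was nearly absent, with at most 5 counts in a sample, and was not tested.

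The MAP kinase cascade that leads to AP-1 showed small differences. Of its 39 genes 37 were tested, 17 were higher and 20 lower in TCR+DMGV, 0 had an unadjusted p under 0.05, and the log2 fold changes ran from -0.28 to 0.12 with a median of -0.0085, which ranged from -0.034 (TCR alone replicate 3 left out) to 0.023 (TCR alone replicate 2 or TCR+DMGV replicate 3 left out). Rasgrp1, which activates Ras after TCR signals, had 141 ± 22.2 CPM in TCR alone against 117 ± 24.8 CPM in TCR+DMGV (log2 fold change -0.28, standard error 0.18).

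The DNA-binding partners of AP-1, such as the NFAT and interferon regulatory factors, were all tested (11 of 11). Of these 7 were higher, 0 had an unadjusted p under 0.05, and the median log2 fold change was 0.05. Leaving out TCR alone replicate 2 gave a median of 0.0038, and leaving out TCR+DMGV replicate 1 gave 0.022. Nfatc2 had 80.8 ± 6.17 CPM in TCR alone against 68.3 ± 14.9 CPM in TCR+DMGV (log2 fold change -0.24, standard error 0.17), and Ets1 had 299 ± 69.6 and 371 ± 97.8 CPM (log2 fold change 0.31, standard error 0.23). Of the 8 genes for turnover of Jun and Fos proteins 3 were higher, 0 had an unadjusted p under 0.05, and the median was -0.05, but 0.020 without TCR+DMGV replicate 1 and 0.0089 without TCR alone replicate 2. Ndfip1, an adaptor of the ubiquitin ligase Itch, had a log2 fold change of 0.15 (standard error 0.11), and Fbxw7, the ligase subunit that marks Jun, had 0.14 (standard error 0.12).

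Of 24 genes listed here as AP-1 targets, 21 were tested and 14 were higher in TCR+DMGV. The median log2 fold change was 0.09, which ranged from 0.02 (TCR alone replicate 1 left out) to 0.15 (TCR alone replicate 2 left out). An unadjusted p under 0.05 was found for 2 of the 21, 1 in each direction, beside 3.19% of all genes. Tnf, an inflammatory cytokine, had 27.8, 29.7 and 29.1 CPM in TCR alone against 37.8, 33.1 and 39.9 CPM in TCR+DMGV (log2 fold change 0.35, standard error 0.10). Il10, a cytokine that limits inflammation, had 4.45, 4.95 and 4.47 CPM in TCR alone against 2.67, 3.04 and 3.61 CPM in TCR+DMGV (log2 fold change -0.57, standard error 0.18). For both genes the groups did not overlap, as for 3 of the 21 in all and for 8.86% of all genes. Il2, a classical target of NFAT and AP-1, had a log2 fold change of 0.16 with a standard error of 0.32.

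A list of immediate early and related genes outside AP-1 was also compared, and their response to the activators was not measured here. All 28 were tested, 20 were higher in TCR+DMGV, and the median log2 fold change was 0.10, which was 0.04 without TCR alone replicate 1 or without TCR alone replicate 2 and 0.06 without TCR+DMGV replicate 1. An unadjusted p under 0.05 was reached by 2 of the 28, beside 3.19% of all genes. Nr4a1, an orphan nuclear receptor induced by TCR signals, had 214.73, 208 and 245 CPM in TCR alone against 302, 268 and 261 CPM in TCR+DMGV (log2 fold change 0.32, standard error 0.09). Nr4a2, a second receptor of this group, had 41.7, 46.4 and 52.6 CPM in TCR alone against 61.1, 55.5 and 59.8 CPM in TCR+DMGV (log2 fold change 0.33, standard error 0.11). The groups did not overlap for either gene, as for 6 of the 28 in all and for 8.86% of all genes.

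By the rule set for likeness, the genes whose log2 CPM over the 6 samples followed that of Jun most closely, among 9042 genes with a mean log2 CPM above 3, were Commd10 (Pearson r = 0.984), Golga4 (r = 0.983) and Tpi1 (r = 0.979). Golga4 had 53.3, 82.1 and 82.1 CPM in TCR alone against 53.04, 47.8 and 44.4 CPM in TCR+DMGV. The 6 points share their libraries, and the highest of 9042 correlations over 6 samples are given as a description only.

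The counts of a sample summed to between 37758725 and 43718867. The label of CD3+ T cells was checked against markers. All 14 T cell markers were tested, and all 14 had a higher estimate in TCR+DMGV, with log2 fold changes from 0.02 to 0.26 and a median of 0.13. Their summed level was 2261 to 2660.2 FPKM in TCR alone and 2479.8 to 2743 FPKM in TCR+DMGV, so the groups overlapped in this sum. Trbc1 had the smallest p, with a log2 fold change of 0.22 (standard error 0.08), followed by Cd3d with 0.23 (standard error 0.10). Summed levels of other cells were low in both groups, with 4.59 to 6.12 and 5.04 to 5.28 FPKM for 9 B cell markers, 2.45 to 3.99 and 2.52 to 3.75 FPKM for 10 macrophage and monocyte markers, 1.02 to 1.44 and 1.17 to 1.44 FPKM for 7 dendritic cell markers, and 4.70 to 5.83 and 2.28 to 4.24 FPKM for 7 erythroid markers. The erythroid sums did not overlap between the groups and were lower in TCR+DMGV. The 6 NK cell markers summed to 14.0 to 15.5 and 14.8 to 17.9 FPKM, mostly from Eomes, which T cells also make. The 7 neutrophil markers were listed at 0, as were Cd14, Mrc1, Clec9a, Siglech and Cd209a. In the order B cells, macrophages, dendritic cells, NK cells and erythroid cells, the genes of smallest p had log2 fold changes of 0.40 for Fcer2a (standard error 0.21) and 0.30 for Pax5 (standard error 0.34), -0.08 for Csf1r (0.15) and -0.30 for Mpeg1 (0.73), 0.35 for Itgax (0.23) and -0.24 for Zbtb46 (0.21), 1.37 for Klre1 (0.54) and 0.18 for Eomes (0.11), and -1.20 for Hba-a2 (0.45) and -1.21 for Hba-a1 (0.54). The groups did not overlap in CPM for 4 of the 14 T cell markers, Trbc1 among them, beside 8.86% of all genes. They also did not overlap for Fcer2a, Klre1, Hba-a2 and Hba-a1. These were 1 of 5 tested B cell, 1 of 5 NK cell and 2 of 5 erythroid markers, against 0 of 3 macrophage and 0 of 3 dendritic cell markers. In bulk RNA, fewer cells of a type and less RNA per cell cannot be told apart, and the part of these markers in the values of the AP-1 genes was not tested.

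Ratios between the AP-1 genes were computed in each sample after the data were seen, and are given as values with no test. Of the 45 pairs of the 10 genes, 7 had FPKM ratios that did not overlap between the groups, beside 8.88% of all pairs of tested genes with FPKM above 0 in every sample. Junb was in 4 of these pairs. The ratio of Junb to Jun was 5.12, 4.22 and 5.36 in TCR alone and 6.12, 5.81 and 6.43 in TCR+DMGV, higher in each TCR+DMGV sample than in any TCR alone sample. Junb to Atf3 was 2.89 ± 0.309 and 3.49 ± 0.255, Junb to Batf 1.97 ± 0.15 and 2.30 ± 0.159, and Junb to Fosl2 19.8 ± 1.44 and 23.9 ± 1.53 (SD, n = 3 each). Jund to Jun was 22.2 ± 3.13 and 25.6 ± 0.406, Jund to Fosl2 was 89.4 ± 5.79 and 100.1 ± 9.47, and Batf to Fos was 20.1 ± 2.06 in TCR alone and 17.1 ± 0.676 in TCR+DMGV. The pairs share genes and were picked for this pattern, and GC content differs between Junb (62.6%) and Jun (55.5%), whose part in the ratio was not tested.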

How the data were processed

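Total RNA of 6 samples, 3 TCR alone and 3 TCR+DMGV, was sequenced after preparation of mRNA libraries, and all samples were grouped by their labels. Per the methods, the authors cleaned reads in SOAPnuke and aligned them by HISAT2 (version 2.0.4 in the submitters' processing notes, which name the build mm9) and calculated expression with StringTie. The deposited counts, 1 whole number for each gene or transcript and sample, were not normalised, and how StringTie's coverage became counts is not given in the sources used here. The FPKM values deposited by the authors are scaled to length and to the total of each sample. The tables hold no coordinates. Their identifiers match GENCODE M21 (GRCm38) for 99.7% of genes without the version, so coordinates here are those of that annotation.

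Counts were compared with edgeR 4.0.16 in R 4.3.3 (TMM, default expression filter, quasi-likelihood test, Benjamini-Hochberg adjustment over all genes or transcripts tested). A standard error is the size of the log2 fold change divided by the square root of the F value. Log2 CPM used a prior count of 2. The GC correction removed a loess trend (span 0.3) fitted in each sample over genes whose mean log2 CPM exceeded 3, and 99.8% of genes tested had a GC value. Alternatives used DESeq2 1.42.0, limma 3.58.1 on log2(FPKM + 1) or log2(FPKM + 0.1), other scalings and filters, a replicate block and each sample left out. After inspection of the data, 2 more were added, namely summing overlapping genes and leaving out both samples with a rising GC trend. The fits were tested on simulated data. There edgeR recovered 64 of 100 changes of 1 log2 unit and 90 of 100 changes of 2 log2 units, with 9 false calls. Smaller changes were not simulated. Python 3.11.15 with pandas 2.3.3 read the tables.

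The members and the lists were chosen with earlier results of these data known. The named genes were the 10 members, their transcripts with a mean of at least 10 counts, the 2 tested genes of smallest p in each other list, and the 3 genes most like the member of smallest p. Il2, Batf2 and the markers listed at 0 were named after their values were seen. Some marker genes below the filter were not tested. A gene that the rule names is not reported here.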

Additional observations from a re-analysis of the deposited data

How the results depend on the processing

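The log2 fold changes of the 10 AP-1 genes were recomputed under 18 other settings chosen at the outset and 2 added later. Of these 200 values 189 kept their direction, 11 changed it and 0 passed an adjusted p of 0.05, the lowest being 0.65. An unadjusted p under 0.05 was found for 4 of the 200, beside 3.19% of all genes in the main test. It was found for Junb without TCR alone replicate 3, beside 1109 of 15191 genes. Jun had it without TCR alone replicate 1 (438 of 15169 genes) and Fosb without TCR+DMGV replicate 3 (368 of 15223 genes). Junb also had it with both samples of rising GC trend left out, where the count over all genes was not taken. Fos, Fosb, Fosl2, Jun, Junb and Atf3 kept their direction in all 20. Jund was -0.040 with the GC correction and -0.042 with the replicate block and GC correction, Batf3 was 0.0064 with the replicate block, and with both samples of rising GC trend left out Batf was 0.0070 and Batf3 0.17. The cause was not tested. With 1 sample left out, Jund ranged from -0.025 to 0.16, Fosl1 from -0.093 to 0.28, Batf3 from -0.26 to 0.22, Batf from -0.11 to -0.011, Fosl2 from -0.20 to -0.02, Fosb from 0.33 to 0.89, Junb from 0.10 to 0.26, Jun from -0.22 to -0.12, Fos from 0.11 to 0.21 and Atf3 from -0.16 to -0.07.

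Genes past the threshold numbered 2 in the main test, 12 with DESeq2, 1 with library size alone, 1 with all genes that had a count, 0 in each of the 3 limma fits on log2(FPKM + 1) or log2(FPKM + 0.1) (545 to 765 at an unadjusted p under 0.05), 0 with the replicate block (340) and 0 with the replicate block and GC correction (455). With 1 sample left out they numbered 0 to 5 (368 to 1109 at an unadjusted p under 0.05, the highest without TCR alone replicate 3). Transcripts past the threshold numbered 0 in the main test (1235 at an unadjusted p under 0.05) and 359 with DESeq2, and 0 to 1 with 1 sample left out. Same-numbered samples of the 2 groups had deviations correlated at -0.15, 0.12 and -0.15, and nothing in the labels says that a number marks a shared animal or batch, so the samples were not treated as pairs. No AP-1 gene changed its call under the block. Fosb and Batf3 had the fewest counts (48 to 156 and 115 to 230) and the largest biological coefficients of variation (33.3% and 26.2%) of the 10.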
